A study of Arabidopsis thaliana with 9 samples.

Results

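CKX5, CKX6, UGT76C1 and UGT76C2 are genes of cytokinin (CK) inactivation, and their transcripts were measured in cauline buds of Arabidopsis thaliana on Affymetrix ATH1 arrays. The 4 genes were chosen by name, and each is represented by 1 of the 22810 probe sets of the array. They are 4 of 12 listed genes of CK inactivation, of which 5 have a probe set with a single gene name in the tables used here. CKX5 (AT1G75450, chromosome 1) and CKX6 (AT3G63440, chromosome 3) are named only through the study's own list of selected transcripts. UGT76C1 (AT5G05870) and UGT76C2 (AT5G05860), both on chromosome 5, are named by the platform annotation. Loci were used for the match, since RefSeq (TAIR10.1) also holds ATCKX6 as an older name of CKX5.

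CKs are plant hormones that promote cell division and bud outgrowth, and their level in a tissue is set by synthesis, transport and inactivation. Cytokinin oxidase/dehydrogenases, encoded by the CKX genes, cleave the side chain of CKs, which cannot be reversed. UGT76C1 and UGT76C2 are glucosyltransferases that attach glucose to nitrogen atoms of the CK ring, and the products are regarded as inactive. Several CKX genes are known to be raised by CK itself, together with the type-A response regulator (ARR) genes, the classical primary targets of CK signalling. In Arabidopsis, loss of CKX3 and CKX5 together enlarges the inflorescence meristem.

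The buds were the first cauline buds of Col-0 wild-type plants 3 to 4 weeks old, still attached to isolated nodal stem segments, and all were treated for 18 h. Arrays labelled NAA+BA came from segments given 1 µM of the auxin 1-naphthaleneacetic acid (NAA) apically and 1 µM of the CK 6-benzylaminopurine (BA) basally. The label NAA stands for segments given the auxin alone. The label mock stands for segments given only the solvents, which by the study's methods were diluted 70% ethanol apically and diluted DMSO basally. Each group has 3 arrays, labelled as biological replicates, and how many buds went into each is not given in the sources used here. No group received CK without auxin.

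The names mock and NAA are in doubt. The sign of the auxin effect in the list of selected transcripts is matched by the deposited values for 0 of 220 entries with the arrays as labelled, and for 220 of 220 with the names mock and NAA exchanged. The list therefore treats the arrays labelled NAA as the ethanol control and those labelled mock as auxin alone. Over all probe sets, 2 were called different between NAA+BA and NAA arrays, CKX5 among them, and 1241 between NAA+BA and mock arrays, at the thresholds given below. Groups keep their labels below, as NAA+BA, NAA and mock arrays. The exchanged reading is given where each comparison of the 4 genes is first tested, and it holds wherever that comparison is named again. The NAA+BA arrays carry the same name in both readings.

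Values are log2 expression values made with the RMA algorithm, which corrects the background, normalises the arrays to each other and summarises the probes of a probe set. A difference of 1 is thus a 2-fold change. The medians of the arrays ranged between 6.99 and 7.11, and the share of probe sets above a value of 5 between 68.9% and 69.8%. Precision is limited by the number of arrays. Among 11 listed markers of shoot meristems and buds, 4 have a named probe set. Of these, LAS and UFO were above 5 on all arrays, as was the boundary gene CUC3, and CLV3, expressed in meristem stem cells, was below 5 on all 9 arrays. None of the listed markers of leaf, secondary wall, root or flower has a named probe set, so that they were not analysed here.

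CKX5 separated all 3 groups. Its log2 expression value was 8.84, 8.82 and 8.71 on the NAA+BA arrays, against 7.28, 7.18 and 7.37 on the NAA arrays and 5.35, 5.29 and 5.26 on the mock arrays. No group overlapped another, and the narrowest gap, 1.34 between the lowest NAA+BA array and the highest NAA array, exceeded the widest range within a group, 0.19. In whole buds, a difference of this kind cannot be told apart from a change in the share of cells that express the gene.

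CKX6 had the same order of group means with more spread. It stood at 8.83, 8.40 and 8.47 on the NAA+BA arrays, 7.91, 7.90 and 8.27 on the NAA arrays and 6.86, 6.49 and 7.06 on the mock arrays. The groups did not overlap, but the NAA+BA and NAA arrays came within 0.13 of each other.

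UGT76C2 also had its lowest values on the mock arrays. It stood at 7.98, 7.53 and 7.66 on the NAA+BA arrays and at 7.05, 7.39 and 7.55 on the NAA arrays, and these groups overlapped. The mock arrays, at 6.58, 6.59 and 6.38, lay below all others.

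UGT76C1 ran the other way by a small amount. It stood at 6.89, 6.87 and 6.86 on the NAA+BA arrays, at 6.83, 6.89 and 7.28 on the NAA arrays and at 7.42, 7.38 and 7.14 on the mock arrays. The NAA+BA arrays lay below the mock arrays without overlap. Replicate 3 of NAA lay above replicate 3 of mock, so that these groups overlapped. Separation of 3 arrays from 3 others was common. Between NAA+BA and mock, 18.8% of all probe sets were higher and 14.7% lower without overlap, 5.27% were higher without overlap between NAA+BA and NAA, and 17.3% between NAA and mock.

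**Figure D1:**
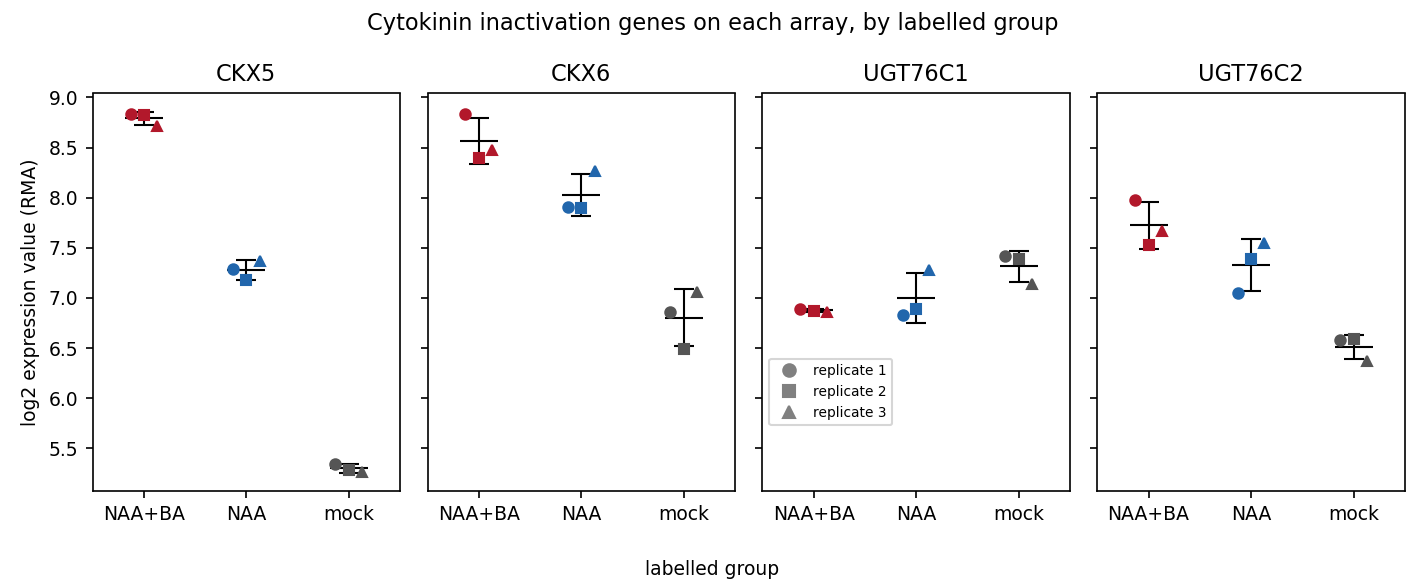
Log2 expression values (RMA, vertical axis) of CKX5, CKX6, UGT76C1 and UGT76C2 on each of the 9 arrays, by labelled group (horizontal axis), with the replicate number as the symbol and mean ± SD of 3 arrays as the bars. CKX5 averaged 8.79 on the NAA+BA arrays, 7.28 on the NAA arrays and 5.30 on the mock arrays, while UGT76C1 averaged 6.88, 7.00 and 7.32 on the same groups.

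Buds on the NAA+BA arrays had higher transcript levels of CKX5, CKX6 and UGT76C2 than those on the mock arrays. This comparison contrasts auxin plus CK with the ethanol control by the labels, and auxin plus CK with auxin alone when the names are exchanged. CKX5 averaged 8.79 ± 0.07 with NAA+BA and 5.30 ± 0.04 with mock (SD, n = 3 each), an 11.2-fold difference (log2 fold change 3.49, standard error 0.11, adjusted p = 5.63e-07 from limma). It had the lowest p of all probe sets in this comparison. CKX6 averaged 8.57 ± 0.23 with NAA+BA and 6.80 ± 0.29 with mock (SD, n = 3 each), a 3.39-fold difference (log2 fold change 1.76, standard error 0.18, adjusted p = 0.000810 from limma). UGT76C2 averaged 7.72 ± 0.23 with NAA+BA and 6.51 ± 0.12 with mock (SD, n = 3 each), a 2.31-fold difference (log2 fold change 1.21, standard error 0.17, adjusted p = 0.00218 from limma). UGT76C1 averaged 6.88 ± 0.01 with NAA+BA and 7.32 ± 0.15 with mock (SD, n = 3 each). This log2 difference of -0.44 (95% interval -0.76 to -0.12) was well short of a 2-fold change. Its adjusted p of 0.0577 from limma lay close to the threshold for the adjusted p and did not pass.

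A difference was called where its adjusted p was below 0.05 and it reached 2-fold. Of all probe sets, 2.19% were called higher with NAA+BA than with mock. The 4 genes gave 3 calls, all higher, but CKX5 and CKX6 could be named only because the study had selected them for this contrast on these arrays, and nothing is read from the count. UGT76C1 and UGT76C2 carry a name whatever their values, and of these 1, UGT76C2, was called.

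**Figure D2:**
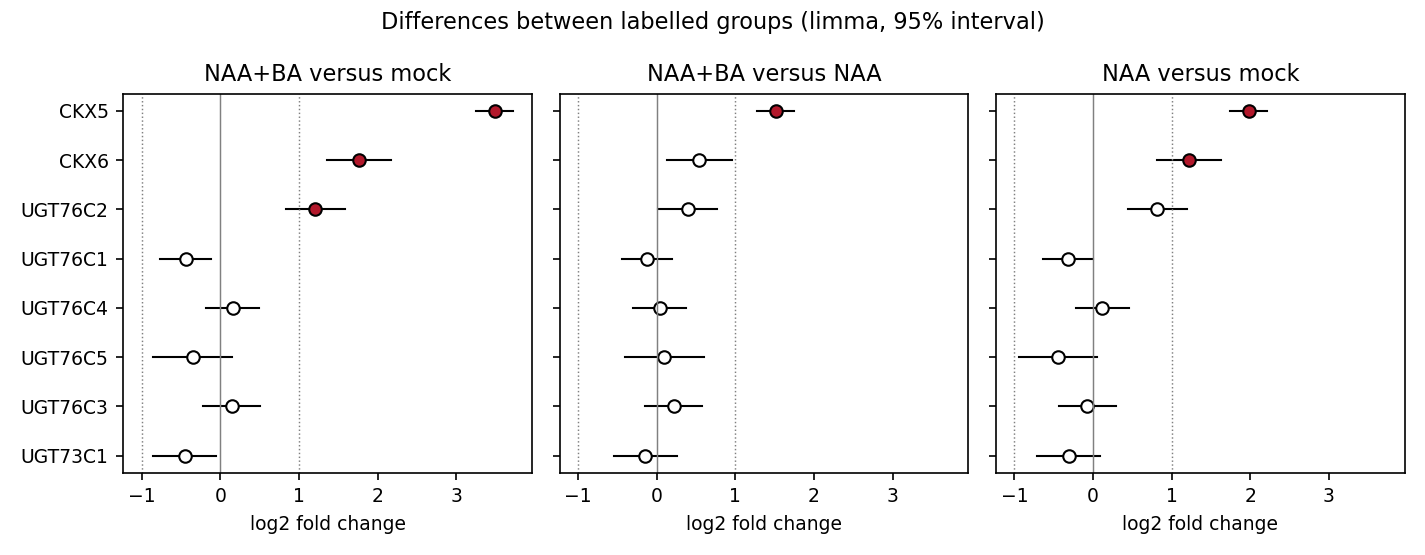
Log2 fold changes (horizontal axes) of the measured CK inactivation genes and of the UGT76C genes that lie beside UGT76C1 and UGT76C2 in the 3 comparisons, with 95% intervals from limma as lines, filled points for probe sets called and dotted lines at a 2-fold change. CKX5 is the 1 gene with a filled point between NAA+BA and NAA, where its log2 fold change is 1.51, and the intervals of UGT76C3, UGT76C4 and UGT76C5 hold 0 in each comparison.

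Between the NAA+BA and NAA arrays, CKX5 was the 1 gene of the 4 that was called. By the labels this comparison is the effect of basal CK under apical auxin, and with the names exchanged it sets auxin plus CK against the ethanol control. CKX5 was 2.85-fold higher with NAA+BA (log2 fold change 1.51, standard error 0.11, adjusted p = 0.00172 from limma), where 0.00877% of all probe sets were called. This contrast was not used to select the transcripts through which CKX5 is named, although it shares its arrays with those that were. CKX6 averaged 8.57 with NAA+BA and 8.02 ± 0.21 (SD, n = 3) with NAA, a difference of 0.54 whose 95% interval ran between 0.13 and 0.95 (adjusted p = 0.9996 from limma). UGT76C2 averaged 7.72 with NAA+BA and 7.33 ± 0.26 (SD, n = 3) with NAA, a difference of 0.39 with an interval of 0.02 to 0.76 and the same adjusted p from limma. For UGT76C1, at 6.88 with NAA+BA and 7.00 ± 0.25 (SD, n = 3) with NAA, the difference was -0.12, with an interval of -0.44 to 0.20. Without NAA replicate 3 it turned to 0.02, and without NAA replicate 1 it was -0.21. The UGT76C2 difference was 0.25 without NAA replicate 1 and 0.26 without NAA+BA replicate 1. The intervals of CKX6, UGT76C1 and UGT76C2 thus stay below a 2-fold change in either direction, and they are not adjusted for the number of probe sets.

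On the NAA arrays, CKX5 and CKX6 were higher than on the mock arrays. By the labels this is the effect of apical auxin, and with the names exchanged each direction turns round, so that both genes would be lower with auxin alone than in the ethanol control. CKX5 averaged 7.28 ± 0.09 with NAA and 5.30 ± 0.04 with mock (SD, n = 3 each), a 3.94-fold difference (log2 fold change 1.98, standard error 0.11, adjusted p = 3.28e-05 from limma). CKX6 differed by 2.33-fold (log2 fold change 1.22, standard error 0.18, adjusted p = 0.00280 from limma). UGT76C2 differed by 1.76-fold (log2 difference 0.82, standard error 0.17, adjusted p = 0.00991 from limma), below the 2-fold threshold, so that it was called on the adjusted p alone and not with the fold change threshold. UGT76C1 had a log2 difference of -0.32 (95% interval -0.64 to 0.00, adjusted p = 0.164 from limma). Of all probe sets, 1.28% were called higher with NAA than with mock, and CKX5 and CKX6 were again selected by the study on this contrast.

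The differences of UGT76C1 from mock were larger without the arrays with replicate number 3. Without these 3 arrays, a setting chosen after the data were seen, UGT76C1 was lower by 0.55 on the log2 scale with NAA than with mock (adjusted p = 0.00381 from limma) and by 0.52 with NAA+BA than with mock (adjusted p = 0.00457 from limma). Both stay under a 2-fold change. The adjusted p between NAA+BA and mock ranged between 0.0223, without mock replicate 3, and 0.178, without mock replicate 1, and was 0.0241 without NAA replicate 3, all from limma. It was 0.0445 from limma over the probe sets above 5 on at least 3 arrays, and 0.0491 after a further quantile normalisation. Between NAA and mock it was 0.0396 from limma without NAA replicate 3, where the log2 difference was -0.46. With weights for each array, the log2 differences were -0.51 for NAA+BA and -0.50 for NAA against mock, with adjusted p of 0.000828 and 0.000237 from limma.

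The mean on the NAA arrays lay between those of the other groups for each of the 4 genes. For CKX5 it lay 56.7% of the way along the log2 difference that separates NAA+BA and mock arrays, and between 55.4% and 58.1% when any single array was left out. The position was 69.2% for CKX6 (62.3% to 74.7%) and 67.6% for UGT76C2 (58.5% to 79.3%). For UGT76C1, whose difference was small, it was 72.0% but ranged between 52.6% and 104.0%. Both steps share the NAA arrays, and CKX5 and CKX6 were selected for high values against mock, so that these positions are a description. How many other probe sets have an NAA mean in between was not counted.

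The probe sets of the CKX genes did not move by equal amounts. On each array, the log2 value of CKX6 was subtracted from that of CKX5, and the change of this difference across groups was tested; its level has no meaning, since it sets 2 probe sets against each other. The difference was 0.01, 0.42 and 0.24 on the NAA+BA arrays, -0.62, -0.72 and -0.90 on the NAA arrays and -1.51, -1.21 and -1.80 on the mock arrays. The 3 groups did not overlap. The log2 value of CKX5 thus changed more than that of CKX6, by 1.73 between NAA+BA and mock and by 0.97 between NAA+BA and NAA. Whether the amounts of the 2 transcripts changed unequally cannot be told from 2 probe sets. An exact permutation test over the 1680 arrangements of the 9 arrays gave p = 0.00357, two-sided, the smallest it can give, and the same value after adjustment over the 2 pairs tested. CKX5 and CKX6 were both selected for high values against mock, so that this p is no separate evidence.

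UGT76C1 and UGT76C2 also parted. UGT76C2 minus UGT76C1 was 1.09, 0.65 and 0.80 on the NAA+BA arrays, 0.22, 0.51 and 0.27 on the NAA arrays and -0.84, -0.80 and -0.76 on the mock arrays. The 3 groups did not overlap, and the mock arrays lay closest together. Between NAA+BA and mock this follows from the single genes, since UGT76C2 was higher and UGT76C1 lower there without overlap. How many other pairs of probe sets part the 3 groups was not counted, which holds for the CKX pair too. The difference between NAA+BA and mock was 1.65 and that between NAA and mock 1.13, on the log2 scale, and the exact permutation test gave p = 0.00357 here as well, with an adjusted value of 0.00357. Both pairs were chosen with the results of the single genes known, so that nothing is read from the p-values. The differences describe how unequally the log2 values of a pair changed.

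**Figure D3:**
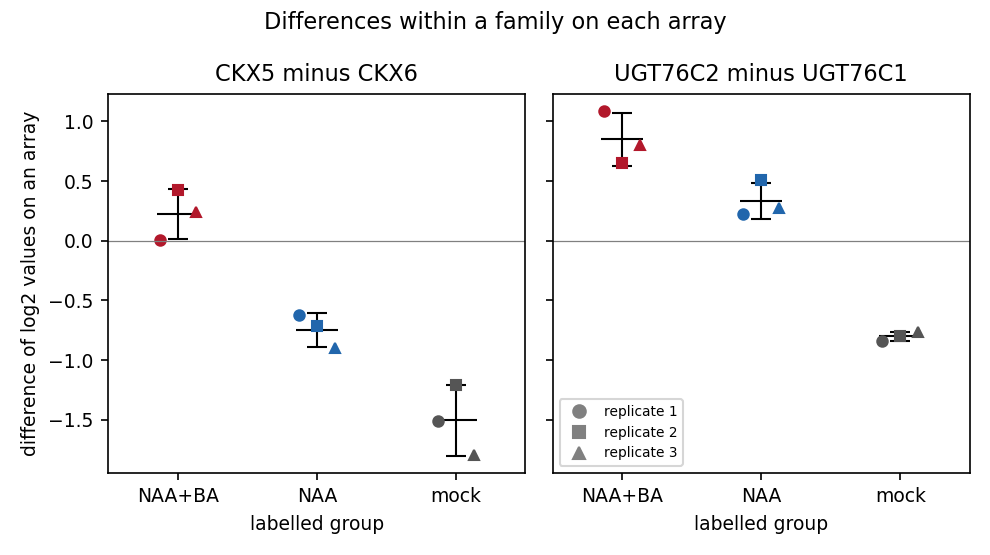
Difference of the log2 values of CKX5 and CKX6 (left) and of UGT76C2 and UGT76C1 (right) on each of the 9 arrays (vertical axis), by labelled group (horizontal axis), with the replicate number as the symbol and mean ± SD of 3 arrays as the bars. In both panels the 3 groups are apart, with means of 0.22, -0.75 and -1.51 for the CKX pair and 0.85, 0.33 and -0.80 for the UGT76C pair on the NAA+BA, NAA and mock arrays.

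The UGT76C genes lie in a row on chromosome 5. In the RefSeq annotation UGT76C2 is followed by UGT76C1, and then by the loci AT5G05880, AT5G05890 and AT5G05900, which are known as UGT76C4, UGT76C5 and UGT76C3. Each has a probe set of its own, and UGT76C2 was the 1 gene of the 5 that was called in any comparison. Its call was higher with NAA+BA than with mock, as for 2.19% of all probe sets. UGT76C4 averaged 4.27 ± 0.23 with NAA+BA, 4.23 ± 0.19 with NAA and 4.11 ± 0.09 with mock (SD, n = 3 each). UGT76C3 averaged 3.95 ± 0.31, 3.73 ± 0.03 and 3.80 ± 0.17 in the same groups (SD, n = 3 each). These levels are below 5, where a probe set is dim and a change of its transcript could be understated. UGT76C5 was brighter, at 6.29 ± 0.18 with NAA+BA, 6.19 ± 0.26 with NAA and 6.64 ± 0.45 with mock (SD, n = 3 each), and its log2 difference between NAA+BA and mock was -0.35 (95% interval -0.85 to 0.15, adjusted p = 0.333 from limma). Genes in such a row can share sequence, and cross-hybridisation between their probe sets was not tested.

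The remaining gene of the inactivation list with a name is UGT73C1, whose product attaches glucose to the side chain of CKs. It was dim, at 4.18 ± 0.25 with NAA+BA, 4.33 ± 0.31 with NAA and 4.63 ± 0.08 with mock (SD, n = 3 each), and did not pass the test between NAA+BA and mock (log2 fold change -0.45, 95% interval -0.85 to -0.05, adjusted p = 0.111 from limma). Over the 5 measured genes of the list, the median log2 fold change was 1.21 between NAA+BA and mock, 0.39 between NAA+BA and NAA and 0.82 between NAA and mock. Over all probe sets these medians were 0.02, 0.00 and 0.04. CKX5 and CKX6 entered the 5 through the study's selection of transcripts high against mock, which raises the medians, and over the 3 genes named by the platform annotation they were -0.44, -0.12 and -0.31. The other listed genes of inactivation, among them CKX1 to CKX4 and CKX7, have no named probe set here and were not analysed.

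Other genes of the CK pathway were measured in part. The lists hold 81 genes, of which 17 could be named on the array, 7 of them only through the study's selection, and none of the 20 listed genes of CK synthesis or the 9 of receptors and phosphotransfer is among them. All 6 measured type-A ARR genes, generally regarded as dampening CK signalling, were called higher with NAA+BA than with mock, as were 2.19% of all probe sets. With NAA 5 of the 6 were called higher than with mock, as were 1.28% of all probe sets. As 4 of the 6 are named through the selection, nothing is read from these counts. The other 2 are ARR15, called both times, and ARR16, not called with NAA against mock (log2 difference 0.96, adjusted p = 0.0525 from limma). ARR15 stood at 9.87, 9.60 and 9.09 on the NAA+BA arrays, 8.00 on each NAA array and 5.28, 5.20 and 5.04 on the mock arrays. None of the 6 was called between NAA+BA and NAA, where CKX5 was. With the names exchanged, this comparison sets auxin plus CK against the ethanol control and is not the effect of added CK. ARR5, ARR6 and ARR15 had log2 estimates of 1.63, 1.57 and 1.51 there, close to or above the 1.51 of CKX5, with wider spread. Their SDs on the NAA+BA arrays were 0.86, 0.65 and 0.39, against 0.07 for CKX5. CRF5, a CK response factor gene that is also named through the selection, was called higher with NAA+BA than mock (log2 fold change 1.22, adjusted p = 0.000763 from limma) and differed by 0.12 between NAA+BA and NAA. The type-B genes ARR18 and ARR19 had log2 differences of -0.01 and 0.10 between NAA+BA and mock and were not called.

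CUC3, one of the bud markers, is named only through the study's selection for the same pattern as CKX5 and CKX6, so that its direction is no separate evidence. It averaged 7.26 ± 0.17 with NAA+BA, 6.80 ± 0.51 with NAA and 5.57 ± 0.21 with mock (SD, n = 3 each), and was called higher in both groups than with mock. CLV3, LAS and UFO, named by the platform annotation, were not called in any comparison, with log2 differences of 0.28, -0.01 and -0.26 between NAA+BA and mock. The part of a changed share of meristem or boundary cells in the CKX values was not tested.

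Patterns close to those of the 4 genes were sought among the other 13610 named probe sets, by Pearson's correlation of log2 values over the 9 arrays. The arrays fall into groups, so that high values are common, and 147 named probe sets had one above 0.9 with CKX5, 267 with CKX6, 78 with UGT76C2 and 42 with UGT76C1. Of these, 26, 40, 15 and 0 are named only through the study's list, which admitted names for high values against mock on these arrays, so that the ranking is shaped by that selection. Among the 5 closest genes this holds for TPS1, FAF1 and ARR7 with CKX5, for TAA1, ARR7, ABCB21 and ERD5 with CKX6, and for TPS1 with UGT76C2. For CKX5 the highest was ARR15 (0.991), followed by TPS1 (0.984), a trehalose phosphate synthase gene, then FAF1 (0.978), of a family that influences meristem size, ARR7 (0.976) and AT5G05840 (0.973). For CKX6 they were the myosin gene XI-I (0.978), the auxin biosynthesis gene TAA1 (0.974), ARR7 (0.971), the auxin transporter gene ABCB21 (0.971) and ERD5 (0.968), a proline oxidase gene. UGT76C2 was closest to AT1G06750 (0.983), AT3G17290 (0.974), AT3G06450 (0.973), XI-I (0.964) and TPS1 (0.962). UGT76C1 was closest to AT4G14500 (0.957), AT5G55860 (0.949), AT1G70790 (0.944), AT4G10060 (0.938) and AT1G25420 (0.936). XI-I, named by the platform annotation, is among the closest to both CKX6 and UGT76C2.

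**Figure D4:**
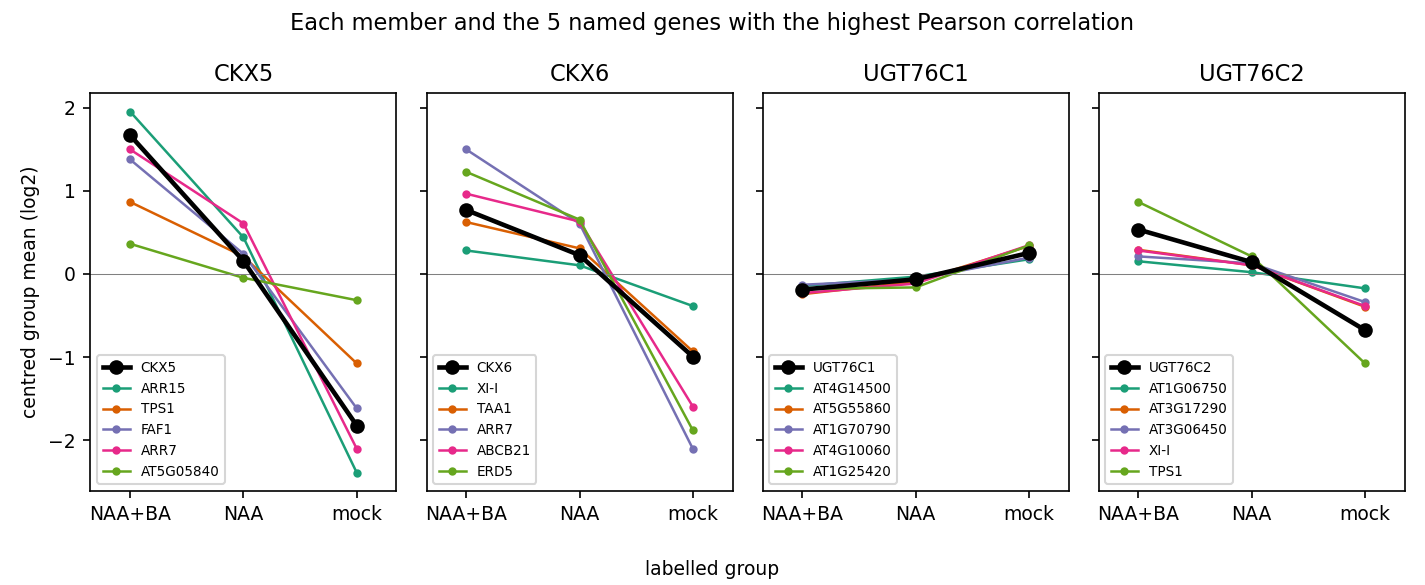
Group means of the log2 values of each gene (black) and of the 5 named genes most correlated with it over the 9 arrays (colours), each centred on the mean of its 3 group means (vertical axis), by labelled group (horizontal axis). The lines of CKX5, CKX6 and UGT76C2 are lowest at mock, those of UGT76C1 are highest there, and genes with a like shape differ in amplitude.

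Of the 4 genes, CKX5 is also the one whose transcript the study assayed by quantitative PCR in other pools of buds, which were not analysed here. The primer pair is shown so that this assay of CKX5 can be set beside the probe set of the array.
CKX5 forward primer: ctcgacgttgtaactgggaaa
CKX5 reverse primer: gctggttcgagagagattcgt
Both are given 5′ to 3′ and are 21 bases long.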

How the data were processed

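RNA of isolated cauline buds was hybridised to 9 ATH1 arrays, 3 per group. The deposited values are log2 expression values, which the authors made with RMA in R 2.15. For RMA, as for limma, their version is not given in the sources used here. None of the 22810 probe sets was filtered out and no value was transformed. A name came from the platform annotation if it lists a single gene (13513 probe sets), or else from the locus in the study's list of selected transcripts (98 more).

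Group means were modelled on all 9 arrays with limma 3.58.1 in R 4.3.3 (lmFit, contrasts, eBayes), following the study's methods, as do the thresholds for a call, and p-values were adjusted by Benjamini-Hochberg over all probe sets of a comparison. The procedure was tested on simulated data. Differences between 2 genes were tested by exact permutation of the arrays. The genes, lists, pairs and tests were chosen with earlier results of these data known. The text names genes by a rule: the 4 genes, called genes of the pathway lists with up to 4 others of each, the 5 closest patterns of each gene, and the marker lists.

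Replicate numbers were not in the model. Between NAA and mock, deviations from the group means correlated between arrays of the same number (0.32, 0.38 and 0.45). Unlike numbers also correlated for NAA 1 with mock 2 (0.23) and NAA 2 with mock 1 (0.29). All unlike pairs with a number 3 array had negative values, in each of the 3 comparisons. The number 3 arrays correlated with each other, at 0.51 between NAA+BA and mock, 0.36 between NAA+BA and NAA and 0.45 between NAA and mock. Deviations from a group mean cancel out within the group, so that positive values force others to be negative. A pairing is thus not settled by the values, the labels do not give one, and the p-values of the main fit leave it out. Alternatives were a replicate block, no fold change threshold, a filter on dim probe sets, quantile normalisation again, median centring, a fit to the 6 arrays of a comparison alone, a robust prior with an intensity trend, weights for each array, exchanged names, each array left out, and all arrays of number 3 left out, the last added after the data were seen. Sequence of promoters and proteins was not used here.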

Additional observations from a re-analysis of the deposited data

How the results depend on the processing

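With the names mock and NAA exchanged, 1 of the 4 genes was called between NAA+BA and mock, with log2 fold changes of 0.54 for CKX6 and 0.39 for UGT76C2, and 3 between NAA+BA and NAA, with 1.76 for CKX6 and 1.21 for UGT76C2. Between NAA and mock the values turned to -1.98 for CKX5 and -1.22 for CKX6. Under each other alternative that was run, the same numbers of the 4 genes were called (3, 1 and 2), except that dropping the fold change threshold added UGT76C2 between NAA and mock. Under these alternatives, with that threshold kept, the number of all probe sets called moved widely. Between NAA+BA and mock it ran from 741 without mock replicate 1 to 2167 without mock replicate 3, against 1241 in the main fit. Between NAA and mock it ran from 732 to 2041 without the same arrays, against 1091. Between NAA+BA and NAA it ran from 1 to 30, the latter with array weights, against 2. Without any single array the log2 fold change of CKX5 between NAA+BA and NAA ranged from 1.46 to 1.56 (adjusted p 0.00230 to 0.0315 from limma), that of CKX6 between NAA+BA and mock from 1.61 to 1.89, and that of UGT76C2 from 1.08 to 1.31.

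With a replicate block CKX5 kept its call between NAA+BA and NAA (adjusted p = 0.00404 from limma), and the block changed no call of the 4 genes. The number of all probe sets called there was 7 with the block, against 2 without it. Only between NAA and mock did each pair of the same number correlate above 0.1; the lowest was 0.08 between NAA+BA and mock and 0.04 between NAA+BA and NAA. With labels exchanged only within a number, the permutation test of both gene pairs gave p = 0.0278, exact and the smallest it can give.

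With all arrays of 1 number left out, the differences between NAA+BA and mock ranged from 1.57 to 1.83 for CKX5 minus CKX6 and from 1.51 to 1.75 for UGT76C2 minus UGT76C1. With 2 arrays per group the exact test cannot go below p = 0.0667, the value it gave each time.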
